A study of Rattus norvegicus with 6 samples.

Results

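The cadherin superfamily was described in primary rat vascular smooth muscle cells, which contract and relax the wall of blood vessels, given either a negative control or an siRNA labelled siRNA_ANK. Members were all protein-coding rows of the count files whose symbol begins with Cdh, Cdhr, Dsc, Dsg or Fat followed by a digit, or with Pcdh. The rule found 65 of 30945 rows, and no measured value entered it. Of these rows, 18 were classical cadherins, 27 protocadherins, 5 other Cdh genes, 5 cadherin-related genes, 6 desmosomal cadherins and 4 Fat genes. Pcdh7 stands on 2 rows.

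Total RNA was sequenced in 6 libraries, 3 per group, with 15641259 to 17441548 counts each. All 6 came from primary smooth muscle cells; the sources used here do not give the vessel, strain, age or siRNA dose. Whether replicates are separate animals or separate cultures is not labelled. All p-values therefore describe only the spread among these libraries, which may be technical. The series title speaks of ANK deficiency, and Ankh, whose protein is also called ANK, measured 352 ± 14.7 CPM with the negative control and 93.7 ± 22.8 CPM with siRNA_ANK (SD, n = 3). CPM are counts divided by library size in units of 1e+06, after scaling for library composition. On the first principal component of all genes, each group had 1 library closer to the opposite group, negative control replicate 2 (-26.7) and siRNA_ANK replicate 3 (25.4). The 10 smooth muscle markers checked were all detected and summed to 2614 to 3634 CPM in the controls and 5184 to 6211 CPM in siRNA_ANK. The 8 adventitial fibroblast markers, none of them at 0 in all libraries, summed to 222 to 255 CPM in the controls and 390 to 435 CPM in siRNA_ANK. Of these 8, 6 were higher in the test given below, as were 19.9% of all genes tested. Pi16 was at 2.62 and 2.87 CPM without passing. Cd34, too low to test, had 0, 3 and 6 counts in control replicates 1 to 3 and 0, 0 and 1 in siRNA_ANK. The part of these shifts in the results was not tested.

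Cadherins are membrane proteins that hold cells together through calcium-dependent extracellular repeats. Classical cadherins bind beta-catenin and p120-catenin with their cytoplasmic tails and reach the actin cytoskeleton through alpha-catenin. N-cadherin, encoded by Cdh2, is the cadherin most often described at contacts between smooth muscle cells. Desmosomal cadherins anchor intermediate filaments instead. Protocadherins lack the catenin-binding tail, and one group of them is encoded in tandem clusters from which single cells use only some of the promoters.

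Most members were absent or too low to test, and most of those that could be tested differed between the groups. No count was found in any library for 21 members, and 40 were too low to be tested. Of the 25 tested members, 13 rose and 5 fell in siRNA_ANK at an adjusted p under 0.05 (edgeR's quasi-likelihood test). Over all 13016 genes tested, 40.1% passed this threshold, 19.9% as higher and 20.2% as lower. Control and siRNA_ANK values were fully separate for 16 of the 25 tested members and for 51.1% of all genes tested. The median log2 fold change was 0.30 over the tested members and 0.01 over all genes tested. These counts describe the members that passed the filter on low counts, which lets a gene in through the group where it is higher. Among the 18 members that changed, siRNA_ANK replicate 3 was the siRNA_ANK library nearest to the controls for 11, and negative control replicate 2 was the control nearest to siRNA_ANK for 10. Over all changed genes these shares were 60.6% and 56.2%. In bulk RNA, fewer cells of a type and less RNA per cell cannot be told apart.

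Fat1 dominated the superfamily, with 73.2% of its counts over all libraries. To compare genes, levels were divided by the length of the gene model in kilobases. On that scale the control mean was 167 CPM per kb for Fat1, 86.9 for Cdh13, 59.5 for Cdh11 and 7.78 for Fat4. The control libraries of these 4 genes did not overlap with those of the next in order, except that Fat4 overlapped with Pcdh18 at 7.77 and Pcdh18 with Cdhr1 at 6.85 CPM per kb. Cdh2 came seventh with 4.95 CPM per kb, so that Cdh11 stood 12.02-fold above it. Cdh24 followed at 3.97, Pcdhga7 at 3.39 and Cdh3 at 1.87 CPM per kb, and all other tested members were lower. The place of Pcdhga7 is uncertain, as its gene model of 41093 bases takes in much of the gamma cluster. Undivided, its mean over all libraries was 139 CPM, against 140 CPM for Fat4. The superfamily as a whole took 0.347% to 0.379% of each control library and 0.372% to 0.448% of each siRNA_ANK library, so the ranges overlapped.

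**Figure D1:**
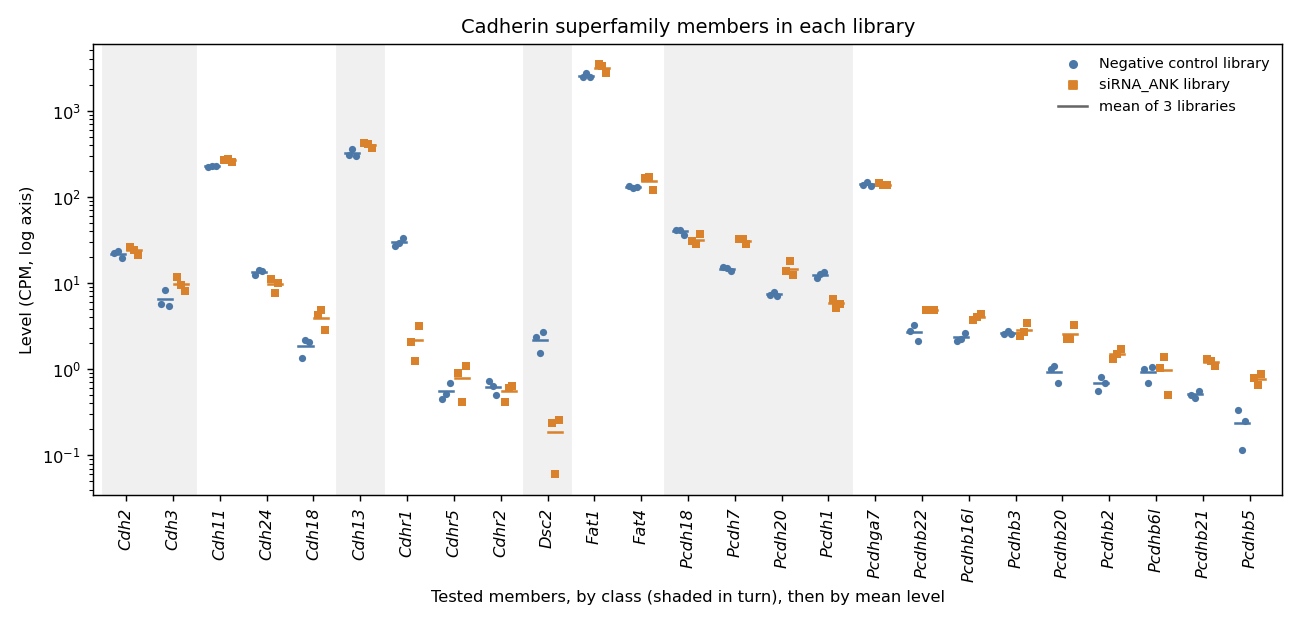
Level of each tested member in each library, in CPM on a log axis, with circles for the 3 negative control libraries, squares for the 3 siRNA_ANK libraries and a bar at each mean; shading marks the classes in turn. Fat1 lies near 2548 to 3157 CPM, and the control and siRNA_ANK points stand farthest apart for Cdhr1 and Dsc2.

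Among the classical cadherins, Cdh11, Cdh18 and Cdh3 rose, Cdh24 fell, and Cdh2 did not pass the test. In all, 5 of 18 were tested, with 3 higher and 1 lower and a median log2 fold change of 0.23. Over all genes tested, 19.9% were higher and 20.2% lower, with a median of 0.01. Cdh11 (ENSRNOG00000013481, chromosome 19, 2148458 to 2304272 plus strand, build mRatBN7.2) encodes OB-cadherin, the type II cadherin of mesenchymal cells and osteoblasts. It was 221, 229 and 225 CPM in control replicates 1, 2 and 3 and 266, 274 and 253 CPM in the siRNA_ANK replicates. All siRNA_ANK values lay above all control values, and the rise was small, 1.17-fold (log2 fold change of 0.23 ± 0.05 SE at an adjusted p = 0.00313). Cdh2 (chromosome 18, 7776704 to 7990167, minus strand) was 22.05, 23.4 and 19.6 CPM in control replicates 1 to 3 against 26.1, 24.4 and 21.0 CPM in siRNA_ANK, with overlapping groups (0.14 ± 0.10, adjusted p = 0.309). Without both libraries that lay nearest to the other group, Cdh2 passed the threshold (log2 fold change of 0.27 at an adjusted p = 0.0226). Those libraries were chosen after seeing the data, and leaving them out tends to widen group differences, so no weight rests on this call.

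Cdh3 encodes P-cadherin, a type I cadherin best known from epithelia. It measured 5.74, 8.18 and 5.44 CPM in control replicates 1 to 3 against 11.7, 9.34 and 7.98 CPM in siRNA_ANK, a 1.499-fold rise in which control replicate 2 lay above siRNA_ANK replicate 3 (adjusted p = 0.0192). Leaving out negative control replicate 1 or 3, or siRNA_ANK replicate 1, ended this call (adjusted p = 0.0893, 0.0875 and 0.123). Without both libraries nearest to the other group the log2 fold change was 0.91 instead of 0.58, but that choice tends to widen differences. Of the epithelial and mesothelial markers, the 8 of 10 found in the files summed to 11.7 to 12.3 CPM in the controls and 13.0 to 16.3 CPM in siRNA_ANK, with Krt5 and Cldn4 at 0. Krt8 was at 7.72 and 8.30 CPM (adjusted p = 0.577), and Upk3b, a mesothelial marker, rose 3.26-fold from 0.740 to 2.41 CPM (adjusted p = 0.0012). Msln, also a mesothelial marker, was at 2.82 and 2.78 CPM with overlapping groups and did not pass (adjusted p = 0.956). The part of these markers in the rise of Cdh3 was not tested. Cdh18, a type II cadherin described mainly in brain, rested on few counts, 24, 38 and 33 in the controls and 70, 80 and 45 in siRNA_ANK. It rose 2.11-fold without overlap (log2 fold change of 1.08 ± 0.26 at an adjusted p = 0.00388).

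Cdh24, another type II cadherin, fell from 12.4, 13.9 and 13.7 CPM to 11.2, 7.73 and 9.94 CPM (log2 fold change of -0.47 ± 0.13 at an adjusted p = 0.0117). The groups did not overlap, but without siRNA_ANK replicate 2 the adjusted p was 0.0543. Its span overlaps a gene on the other strand that held 138 counts over the 6 libraries, and without a stated strand setting reads of the shared stretch cannot be told apart. Cdh6, a type II cadherin of kidney and developing tissues, was too low for the main test. Its counts were 3, 4 and 6 in the controls and 17, 10 and 10 in siRNA_ANK, and without a filter on low counts it was called higher (log2 fold change of 1.53 at an adjusted p = 0.0385).

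Some cadherins of other cell types had no counts. Cdh1, which encodes E-cadherin of epithelia, Cdh5, which encodes VE-cadherin of endothelium, and Cdh19, a marker of Schwann cell precursors, had 0 counts in all 6 libraries. A count of 0 allows a level of up to 0.169 to 0.190 CPM per library (3 counts, counting error only). Of the endothelial markers, Tie1, Kdr and Emcn were also at 0, and the 9 markers found in the files summed to 16.03 to 21.1 CPM in the controls and 24.8 to 27.7 CPM in siRNA_ANK, mostly from Erg, which rose from 4.97 to 18.5 CPM, and Egfl7, which fell from 11.3 to 5.99 CPM. Neuronal markers summed to 13.1 to 16.5 CPM and 11.98 to 14.3 CPM with Snap25 and Gap43 at 0. The 8 leukocyte markers summed to 24.8 to 28.1 CPM in control libraries and 11.3 to 14.9 CPM in siRNA_ANK libraries, without overlap. Most of that was Cd14, which fell from 25.2 to 12.04 CPM (adjusted p = 5.03e-06), while Ptprc, Adgre1, Itgam and Cd3e were at 0. The part of these markers in the results was not tested. Cdh15, which encodes M-cadherin of muscle satellite cells, had 4, 5 and 0 counts in the controls and 6, 0 and 6 in siRNA_ANK, while Myod1, Myog and Pax7 were at 0.

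Cdh13, the second most abundant member per length, rose slightly. It encodes T-cadherin, which is held in the membrane by a lipid anchor, has no cytoplasmic tail and binds adiponectin and low-density lipoprotein in the vessel wall. Cdh13 (ENSRNOG00000014371, chromosome 19, 46349430 to 47387459, plus strand) was 302, 359 and 300 CPM in control replicates 1 to 3 against 416, 404 and 364 CPM in siRNA_ANK. The highest control, replicate 2, lay just below the lowest siRNA_ANK library, replicate 3, and the means differed 1.23-fold (log2 fold change of 0.30 ± 0.07 at an adjusted p = 0.00577).

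Fat1 and Fat4 encode giant cadherins that are relatives of the fly tumour suppressor fat; FAT1 has been described in smooth muscle of injured arteries. Fat1 (ENSRNOG00000030954, chromosome 16, 47177248 to 47296107, minus strand) was 2452, 2713 and 2479 CPM in control replicates 1 to 3 against 3426, 3298 and 2746 CPM in siRNA_ANK. The rise was 1.24-fold (log2 fold change of 0.31 ± 0.08 at an adjusted p = 0.00667), and siRNA_ANK replicate 3 lay just above the highest control. Fat4 was 132, 126 and 130 CPM in control replicates 1 to 3 against 163, 168 and 121 CPM in siRNA_ANK. Replicate 3 fell below every control while the other siRNA_ANK libraries lay above them, and the difference did not pass (log2 fold change of 0.22 ± 0.11 at an adjusted p = 0.157). Without siRNA_ANK replicate 3 it did (log2 fold change of 0.36 at an adjusted p = 1.9e-06). That call rests on leaving out the library that went against it. Fat3 had 18, 12 and 9 counts in the controls and 5, 4 and 7 in siRNA_ANK and was not tested, and Fat2 had 1 count in all.

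Among the 25 tested members the largest changes were falls of Cdhr1 and Dsc2. Cdhr1 encodes a cadherin-related protein known from the base of photoreceptor outer segments. Cdhr1 (ENSRNOG00000013330, chromosome 16, 12843437 to 12863396, minus strand) was 27.2, 28.8 and 33.4 CPM in control replicates 1 to 3 against 2.04, 1.26 and 3.17 CPM in siRNA_ANK. Every control lay far above every siRNA_ANK library, and the mean was 13.8-fold lower in siRNA_ANK (log2 fold change of -3.79 ± 0.20 at an adjusted p = 7.79e-08). In the controls Cdhr1 ranked sixth per length in the superfamily, and its level per length dropped from 6.85 to 0.496 CPM per kb. Cdhr2 and Cdhr5, whose proteins link the microvilli of the intestinal brush border, were at 0.621 ± 0.116 and 0.551 ± 0.115 CPM and at 0.552 ± 0.122 and 0.798 ± 0.340 CPM (SD, n = 3), and neither passed (adjusted p = 0.759 and 0.366). Cdhr3 and Cdhr4 had no counts.

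Dsc2 encodes desmocollin 2, the desmocollin found in most tissues with desmosomes. Its counts were 42, 27 and 43 in the controls and 4, 1 and 4 in siRNA_ANK, or 2.36, 1.55 and 2.69 CPM against 0.240, 0.0599 and 0.253 CPM. The groups were far apart despite the low level, at which the gene passed the filter only through the controls, 11.9-fold lower in siRNA_ANK (ENSRNOG00000039969, chromosome 18, 11450390 to 11482392, log2 fold change -3.53 ± 0.45, adjusted p = 2.70e-05). It was the only desmosomal cadherin that could be tested. Dsc3 had 7 counts over the controls and 1 over siRNA_ANK, and Dsc1, Dsg1, Dsg2 and Dsg3 had none. None of the 3 desmoglein rows, whose proteins pair with desmocollins in a desmosome, was thus detected at this depth. Dsp, the gene of the desmosomal plaque protein desmoplakin, was at 0.185 ± 0.274 and 0.304 ± 0.156 CPM and was not tested. The plakophilin genes Pkp1 and Pkp2 were far higher. Pkp1 fell from 178 to 141 CPM (adjusted p = 0.00554), and Pkp2 rose from 74.4 to 89.3 CPM (adjusted p = 0.0152).

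**Figure D2:**
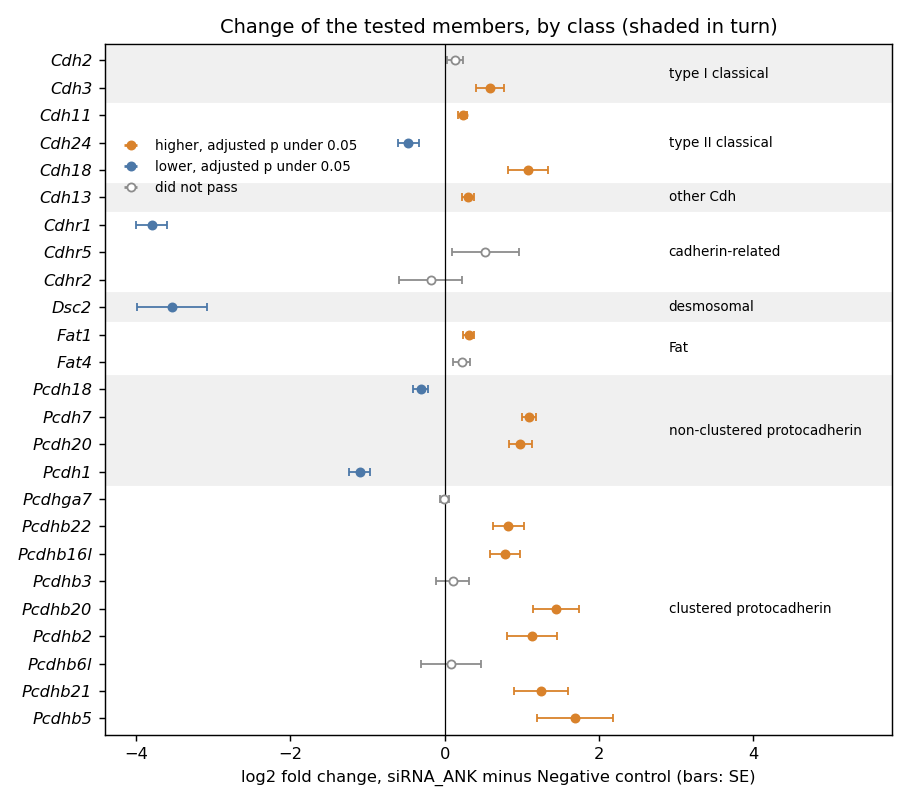
Log2 fold change of each tested member, siRNA_ANK minus negative control, with its SE as a bar; orange points passed as higher, blue points passed as lower and open grey points did not pass. Cdhr1 (-3.79) and Dsc2 (-3.53) lie far to the left, and 6 clustered protocadherins lie to the right while Pcdhga7 sits at -0.01.

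The protocadherins outside the clusters changed in both directions. Of 12 such rows, 4 were tested. Pcdh7 and Pcdh20 rose, and Pcdh1 and Pcdh18 fell, where 40.1% of all genes tested passed in either direction. Pcdh7 (ENSRNOG00000063828, chromosome 14, 52475610 to 52902051, minus strand) encodes a protocadherin that binds to itself across cells. It rose from 15.1, 14.97 and 13.6 CPM to 32.1, 32.5 and 28.3 CPM, 2.12-fold, with tight groups far apart (log2 fold change of 1.09 ± 0.09 at an adjusted p = 4.43e-07). The other Pcdh7 row overlaps it on the opposite strand and held 1 count over the controls and 7 over siRNA_ANK. Pcdh20 was 7.26, 7.83 and 7.12 CPM in control replicates 1 to 3 against 13.6, 17.97 and 12.3 CPM in siRNA_ANK (log2 fold change of 0.98 ± 0.15 at an adjusted p = 9.46e-05).

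Pcdh1, a protocadherin described in airway epithelium, lies on chromosome 18 (30013185 to 30039318, minus strand), downstream of the clustered genes. It fell from 11.3, 12.6 and 13.3 CPM to 6.53, 5.09 and 5.70 CPM, 2.15-fold, without overlap (log2 fold change of -1.10 ± 0.14 at an adjusted p = 1.87e-05). Pcdh18 was 41.5, 41.0 and 36.1 CPM in control replicates 1 to 3 against 30.8, 28.0 and 36.9 CPM in siRNA_ANK, where replicate 3 lay within the control range (log2 fold change of -0.31 ± 0.10 at an adjusted p = 0.0202). Leaving out replicate 1 or 2 of either group ended that call, in the order of controls and then siRNA_ANK (adjusted p = 0.0881, 0.0681, 0.0806 and 0.0838). Among the untested rows, Pcdh10 had 0, 1 and 0 counts in the controls and 5, 5 and 13 in siRNA_ANK, and without a filter it was called higher (adjusted p = 0.00195). Pcdh9 had 6, 7 and 16 control counts against 4, 2 and 7, and Pcdh12 had 9, 12 and 13 against 9, 5 and 6, with overlapping groups in both.

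Within the clustered protocadherins 6 of 8 tested beta genes rose and the gamma row did not pass the test. Of all genes tested, 19.9% rose, and some of these beta genes passed the filter only with siRNA_ANK libraries. In rat the clustered genes lie on chromosome 18 in the order alpha, beta and gamma. Each beta gene is a single large exon with its own promoter, while the gamma genes splice their own first exons to shared last exons. Promoters in the cluster carry a conserved element with a CGCT core, and the factor CTCF binds there. Windows around this element are shown for the 5 tested beta genes in which it was found, 4 of which rose, to show what their start regions share.
Pcdhb2: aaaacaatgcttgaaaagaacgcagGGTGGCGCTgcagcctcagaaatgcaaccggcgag
Pcdhb3: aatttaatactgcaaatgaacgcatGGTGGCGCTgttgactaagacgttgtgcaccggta
Pcdhb5: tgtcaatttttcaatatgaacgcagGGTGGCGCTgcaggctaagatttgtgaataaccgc
Pcdhb20: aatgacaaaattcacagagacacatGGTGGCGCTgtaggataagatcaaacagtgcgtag
Pcdhb21: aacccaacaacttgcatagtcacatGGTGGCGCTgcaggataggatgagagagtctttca
The sequences are RefSeq promoter windows of 60 bases on the plus strand of GRCr8, a later build than that of the counts, at chr18:29279908-29279967, chr18:29285589-29285648, chr18:29302389-29302448, chr18:29485795-29485854 and chr18:29492134-29492193 in the same order. Capitals mark the letters GGTGGCGCT, chosen after these promoters were read and searched on both strands as the only motif. The match begins at position -71, -61, -52, -68 and -60 from the annotated start. Among the members, 52 symbols had a RefSeq promoter of 300 bases, from 250 before to 50 after the start. The motif was found in 9 of 12 Pcdhb members with a promoter, in 1 of 39 matched members outside the clusters (Cdh15, on the other strand), and in 153 of all 33469 promoters (0.457%). Of the 6 beta genes that rose, 4 held the letters, Pcdhb16l did not, and Pcdhb22 had no matched promoter. Of the 2 tested beta genes that did not pass, Pcdhb3 held them and Pcdhb6l did not.

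Of 14 beta rows, 8 were tested, and 6 rose while none fell, where 19.9% of all genes tested rose and 20.2% fell. Pcdhb21 and Pcdhb5 had fewer than 10 counts in every control. Pcdhb2 had 10 counts in control replicate 1, the largest library, and the filter asks for 10 counts at the median depth. Pcdhb21, Pcdhb5 and Pcdhb2 thus passed the filter only with siRNA_ANK libraries, where they were higher. The count of genes that rose is a description. Pcdhb22 and Pcdhb16l had the most counts of those that rose. Pcdhb22 (chromosome 18, 29223149 to 29225536 of mRatBN7.2) was 2.76, 3.28 and 2.12 CPM in control replicates 1 to 3 against 4.796, 4.852 and 4.88 CPM in siRNA_ANK (log2 fold change of 0.82 ± 0.20 at an adjusted p = 0.00407). Pcdhb16l was 2.14, 2.25 and 2.62 CPM and 3.72, 4.01 and 4.31 CPM (0.78 ± 0.20, adjusted p = 0.00611). In both genes every siRNA_ANK library lay above every control. Pcdhb20, their neighbour, had 18, 19 and 11 counts in the controls and 37, 37 and 51 in siRNA_ANK, a 2.74-fold rise (1.44 ± 0.30, adjusted p = 0.00145).

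The remaining beta genes that rose rested on fewer counts. Pcdhb21 rose 2.39-fold from 9, 8 and 9 counts to 22, 21 and 17 counts (adjusted p = 0.0111). Pcdhb2 rose 2.20-fold from 10, 14 and 11 counts to 22, 25 and 27 counts (adjusted p = 0.0126), a call lost without negative control replicate 1 (adjusted p = 0.0596). Pcdhb5 rose 3.31-fold from 6, 2 and 4 counts to 13, 11 and 14 counts (adjusted p = 0.0129), a call lost without negative control replicate 2 (adjusted p = 0.0603) and without both it and siRNA_ANK replicate 3 (adjusted p = 0.0894). The groups of these 3 genes did not overlap. Pcdhb3 and Pcdhb6l, chosen after their values were seen, did not pass. Pcdhb3 was 2.59, 2.76 and 2.56 CPM in control replicates 1 to 3 against 2.40, 2.70 and 3.42 CPM in siRNA_ANK, a log2 fold change of 0.10 ± 0.22 (adjusted p = 0.747) with overlapping groups. Pcdhb6l was at 0.922 ± 0.201 and 0.968 ± 0.438 CPM (adjusted p = 0.891). Of the 6 untested beta rows, Pcdhb1 had no counts, and Pcdhb11 had 1, 0 and 0 control counts against 4, 7 and 2, which was called higher without a filter (adjusted p = 0.0414). Pcdhb7, Pcdhb8, Pcdhb9 and Pcdhb12 also had siRNA_ANK values in CPM above every control, but were not called without a filter (adjusted p = 0.206 to 0.762). For Pcdhb7, Pcdhb8 and Pcdhb12 the highest control and the lowest siRNA_ANK library held equal counts, 2, 2 and 3. Only the scaling of the libraries set those values apart.

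Summed over the 14 beta rows, counts were 202, 205 and 171 in the controls and 312, 335 and 330 in siRNA_ANK, or 11.3 ± 0.565 and 19.9 ± 1.10 CPM (SD, n = 3). Here siRNA_ANK replicate 3, which lay nearest to the controls for most changed members, had the highest sum at 20.9 CPM. Beta genes are near copies of each other, so reads can be shared or lost between them, and the sources used here do not say how such reads were counted. The spans of Pcdhb5 and Pcdhb16l also overlap other protocadherin rows.

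**Figure D3:**
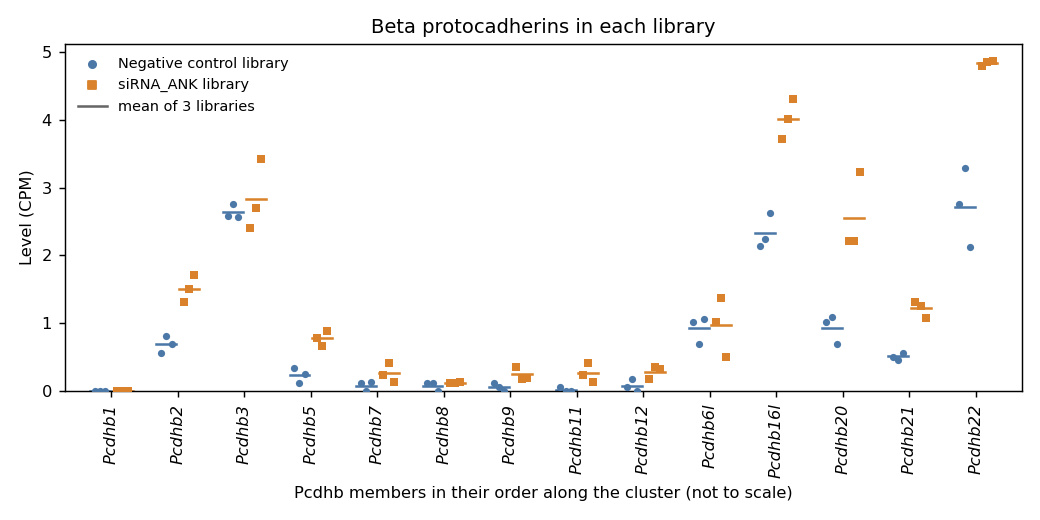
Level of each of the 14 Pcdhb members in each library, in CPM on a linear axis, in their order along the cluster, with circles for the negative control libraries, squares for the siRNA_ANK libraries and a bar at each mean. Pcdhb16l, Pcdhb20, Pcdhb21 and Pcdhb22 at one end and Pcdhb2 and Pcdhb5 at the other show siRNA_ANK squares above all control circles. Pcdhb3 and Pcdhb6l overlap. The untested Pcdhb7, Pcdhb8, Pcdhb9, Pcdhb11 and Pcdhb12 also do not overlap, at no more than 0.419 CPM in any library. For Pcdhb7, Pcdhb8 and Pcdhb12 the nearest libraries of the groups held equal counts and differ only by scaling.

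Pcdhga7 (ENSRNOG00000063070, chromosome 18, 29493954 to 29667868) has a gene model of 41093 bases, far longer than any other member, so that its row takes in much of the gamma cluster rather than 1 gamma gene. It was 136, 148 and 134 CPM in control replicates 1 to 3 against 143, 137 and 136 CPM in siRNA_ANK, with overlapping groups. The log2 fold change was -0.00667 ± 0.0575 (adjusted p = 0.939), and it lay between -0.0377 and 0.0518 under every alternative tried, changing sign among them. A further 7 rows of the region are described as protocadherins in the files but fall outside the rule, 5 of them tested, and were looked at after the members' values were seen. The row described as protocadherin alpha subfamily C rose from 13.3 ± 1.15 to 20.5 ± 1.59 CPM (log2 fold change of 0.62 ± 0.10 at an adjusted p = 0.000227). The row described as protocadherin beta 18 rose 1.55-fold (adjusted p = 0.0341), 2 beta-like rows had log2 fold changes of 0.46 and 0.48 without passing (adjusted p = 0.118 and 0.168), and a non-coding Pcdhga1 row was at -0.00575 (adjusted p = 0.978).

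Genes of proteins that bind cadherin tails or process cadherins changed in both directions. Of 54 partner genes listed, 53 were found, 41 tested, 15 higher and 8 lower, with a median log2 fold change of 0.16. Over all genes tested, 19.9% were higher and 20.2% lower, and the median was 0.01. Ctnna1, the alpha-catenin gene that links the complex to actin, fell from 638, 602 and 633 CPM to 414, 386 and 445 CPM (log2 fold change of -0.59 ± 0.06 at an adjusted p = 2.94e-06). Ctnnb1, which encodes beta-catenin, rose from 308 ± 8.34 to 371 ± 5.11 CPM (0.27 ± 0.05, adjusted p = 0.000772). Alpha-catenin and beta-catenin transcripts thus moved in opposite directions, each without overlap of the groups. Ctnnd1, the gene of p120-catenin, was 140 ± 2.26 and 158 ± 12.1 CPM (0.18 ± 0.06, adjusted p = 0.0323), and this call was lost with DESeq2 (adjusted p = 0.0589) and without any 1 of the controls or of siRNA_ANK replicates 1 and 2 (adjusted p = 0.0581 to 0.165).

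Arvcf, a relative of p120-catenin, rose 2.06-fold from 8.82 ± 0.639 to 18.2 ± 2.44 CPM. Jup, which encodes plakoglobin of both adherens junctions and desmosomes, fell from 180 ± 5.81 to 141 ± 6.28 CPM (adjusted p = 0.000176). Pkp4, a plakophilin-like armadillo protein, rose 1.32-fold. At the plaque, Plekha7, which ties p120-catenin to microtubules, rose 2.16-fold, Magi1, a scaffold protein, rose 1.70-fold and Lima1, which binds alpha-catenin and actin, rose 1.44-fold. Vcl also rose, 1.56-fold, while Afdn fell from 59.5 to 50.4 CPM (adjusted p = 0.0121). Among the enzymes that act on cadherins none rose and 3 of 7 fell. In either direction this is near the 40.1% called over all genes tested, where 19.9% rose and 20.2% fell. So few genes allow no statement about the group. The genes that fell included Adam10, a sheddase of cadherin ectodomains, from 35.2 ± 1.15 to 26.7 ± 1.47 CPM. Ptprm, a phosphatase at cadherin junctions, fell from 171 ± 4.01 to 131 ± 6.33 CPM. Among factors for protocadherin choice or cadherin repression, 4 of 10 rose and 1 fell, in either direction also near the share called over all genes. The cohesin subunit gene Rad21 rose from 97.7 ± 6.29 to 143 ± 6.70 CPM (0.55 ± 0.06, adjusted p = 7.91e-06), and Twist1, which encodes a repressor of Cdh1 in other cells, rose 1.46-fold (adjusted p = 0.000182). Ctcf and Snai1 also rose (adjusted p = 0.02 and 0.00599), while Zeb2 fell from 49.0 to 41.0 CPM (adjusted p = 0.0281). Zeb1, Snai2, Twist2, Smchd1 and Wiz did not pass.

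**Figure D4:**
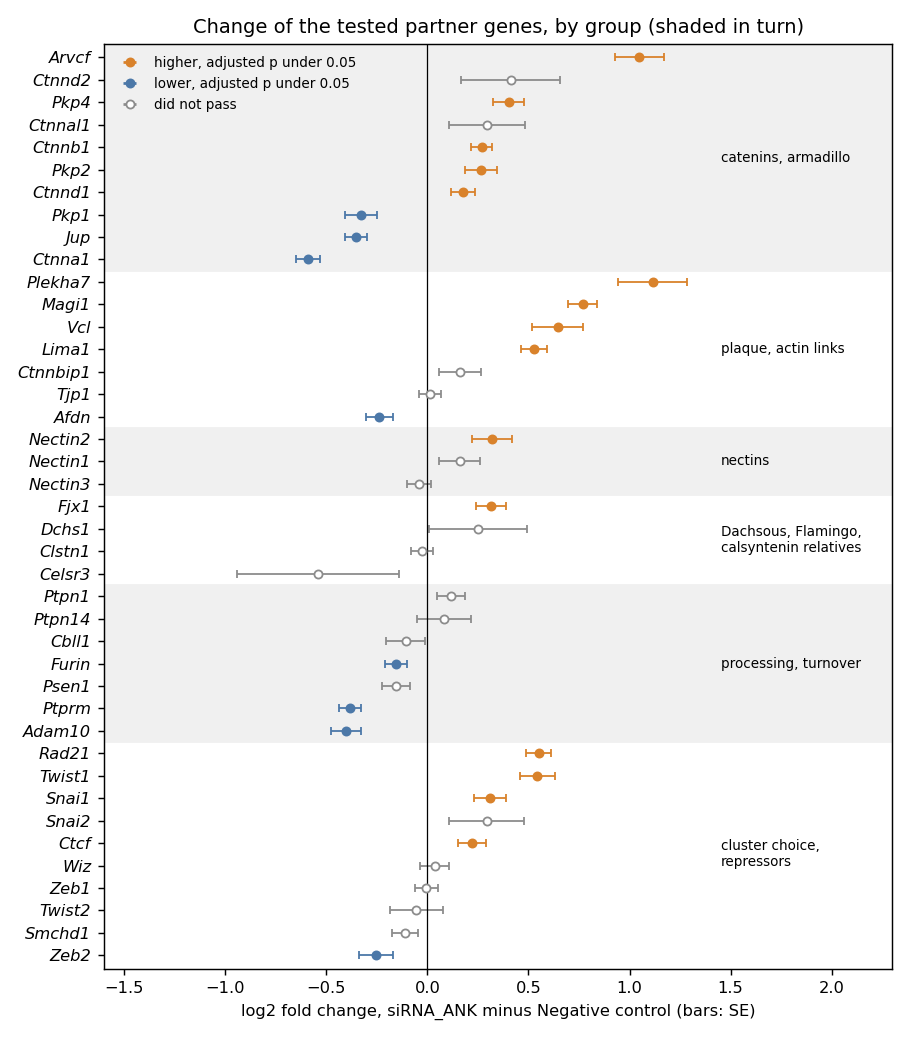
Log2 fold change of each tested partner gene, siRNA_ANK minus negative control, with its SE as a bar, grouped by role; orange points passed as higher, blue points passed as lower and open grey points did not pass. Plekha7 (1.11) and Arvcf (1.05) lie farthest to the right and Ctnna1 (-0.59) lies to the left among the genes that passed.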

How the data were processed

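The authors deposited 1 file of whole-number counts per gene for each library, not normalized, with gene coordinates and lengths. The submitters' processing notes name build mRatBN7.2, DESeq2 and featureCounts 1.5.0-p3, with no roles stated; aligner and strand setting: not given in the sources used here. The 385 rows of gene models with no symbol or biotype held 0.306% to 0.339% of the counts and were kept. The main test used edgeR 4.0.16 under R 4.3.3. In it filterByExpr (minimum count 10, minimum total count 15) left 13016 genes, TMM factors were 0.979 to 1.02, and a robust, two-sided quasi-likelihood test with Benjamini-Hochberg adjustment over all genes tested compared 3 with 3 libraries without covariates. An exact permutation test of 3 against 3 cannot go below 0.1. SE is the log2 fold change over the square root of F. Chi-square per degree of freedom between replicates was 2.83 to 12.3, so none agreed within sampling noise. The edgeR step was tested on simulated data. One count was worth 0.0563 to 0.0633 CPM.

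Named were all changed members, tested members with a mean of at least 5 CPM, and 13 partner genes (the 12 smallest adjusted p among called ones, and the core catenins). Pkp1, Pkp2, Vcl, Afdn and the factors for protocadherin choice or cadherin repression other than Rad21 and Twist1 were added after their values were seen. Members, lists and rules were chosen with earlier results of these data known. Alternatives were DESeq2 1.42.0, limma-voom (limma 3.58.1), other scalings and filters, a replicate block and leaving out libraries.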

Additional observations from a re-analysis of the deposited data

How the results depend on the processing

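Scaling by DESeq2 size factors or the upper quartile, limma-voom and DESeq2 kept the counts of members at 13 higher and 5 lower. With a filter at a mean of 5 CPM only 13 members were tested, 6 of them higher, and 2 protocadherins were higher, since every tested beta gene lies below it. Over all genes that filter left 10020, of which 2254 were higher and 2291 lower. With no filter 44 members were tested, 16 of them higher and 5 lower. Of the 19000 genes tested in that fit, 2688 were higher and 2744 lower. The replicate numbers of the labels showed no strong sign of pairing, as deviations of same-numbered libraries correlated at -0.03, 0.06 and 0.04. Such weak correlations cannot exclude that same-numbered libraries were prepared together. A fit with the replicate block gave 13 members higher and 5 lower, and 2579 and 2631 genes over the whole test. Leaving out 1 library at a time gave 11 to 14 members higher and 3 to 6 lower, 2 to 4 classical cadherins higher and 0 to 1 lower, 7 to 8 protocadherins higher and 1 to 2 lower, and 1991 to 2874 genes higher and 2062 to 2976 lower. Partner genes ranged from 11 to 17 higher and 6 to 8 lower. The counts of 0 and 3 came without siRNA_ANK replicate 2, where the calls of Cdh24 and Pcdh18 were lost. Why these calls depended on that library was not tested. Without both negative control replicate 2 and siRNA_ANK replicate 3, an alternative chosen after seeing the data, 14 members were higher and 5 lower. Leaving out the libraries nearest to the other group tends to widen differences. The log2 fold change of Pcdhga7, never called, turned positive with upper quartile scaling (0.0104), with the 5 CPM filter (0.00418) and without both of those libraries (0.0518), and ranged from -0.0377 to 0.0365 with 1 library left out. Members with few counts, such as Pcdhb5 and Dsc2, are limited by depth.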
